A study of Mus musculus with 42 samples.

Results

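The enzymes and helper proteins that process and crosslink collagen were followed as 10 genes in the livers of APOE*3-Leiden mice. The genes were chosen by name, with earlier results of these data known. They were the lysyl hydroxylases Plod1, Plod2 and Plod3, the collagen chaperone Serpinh1, and the procollagen C-proteinase Bmp1 with its enhancer Pcolce. The others were the lysyl oxidases Lox, Loxl1, Loxl2 and Loxl3. All 10 symbols were found among the 54446 genes of the count table, and all 10 were among the 15574 genes with enough counts to be tested. Liver RNA was sequenced from 42 female mice, with 1 library per mouse. All mice carried the human APOE*3-Leiden transgene, also the 10 chow-fed mice, which stayed on a maintenance diet as a reference. The other 32 mice were 8 to 14 weeks old when a Western-type diet (WTD) was started, with 15% cocoa butter, 40.5% sucrose and 1% cholesterol. After a run-in of 3 weeks, 16 of them continued on the WTD alone. The other 16 received atorvastatin, an inhibitor of cholesterol synthesis, mixed into the WTD at 3.0 mg/kg/day and at 4.5 mg/kg/day from week 5. From week 22 the WTD also contained 0.05% sodium cholate, and livers were taken at week 32. The chow-fed mice received no cholate, so its effect and that of the rest of the WTD cannot be told apart. The animals were group-housed and all female. The mouse numbers carry one prefix in all chow-fed mice and another in all WTD-fed mice, so what the prefix stands for and the diet cannot be told apart.

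Fibrillar collagen is built as a precursor. In the endoplasmic reticulum lysyl hydroxylases modify lysines of the chains, and HSP47, the product of Serpinh1, binds the folded triple helix on its way to secretion. Outside the cell the proteinase encoded by Bmp1 removes the C-terminal propeptide, helped by the enhancer protein of Pcolce, after which fibrils can form. Lysyl oxidases then oxidize lysines and hydroxylysines, from which the covalent crosslinks arise that make a scar stiff and hard to degrade. In fibrotic liver much of this collagen is made by activated stellate cells and portal fibroblasts.

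Counts on genes ranged from 15661381 to 36224054 per library. In 9 libraries, called sparse here, over 20% of the genes with a group mean of 1 to 2 CPM (counts scaled to the size of the library) had no count. These were chow replicates 2, 5 and 6, WTD replicates 8, 9, 10, 15 and 16, and atorvastatin replicate 8. All libraries in which Lox, Loxl2 or Plod2 had no count were among these, so member fold changes whose call changes without them are given both ways. The labelled tissue was checked by hepatocyte markers, of which Alb had a mean of 50778 CPM in WTD-fed mice and Apoa1 6882 CPM, whereas the summed level of 5 pancreas acinar markers was 0 in all chow-fed mice and at most 2.19 CPM in WTD-fed (replicate 16) and 0.252 CPM in treated mice.

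A promoter sequence was found for 4 members, Plod1, Plod3, Serpinh1 and Pcolce. Serpinh1 and Plod1 are shown because the first passed the test given below in both diet and treatment comparisons and the second in neither. Their products act in the same compartment. The sequences are the 250 bases before the annotated RNA start from RefSeq on GRCm38.p6, written 5′ to 3′ on the minus strand on which both genes lie, at chr7:99353240-99353489 for Serpinh1 and chr4:147936777-147937026 for Plod1. Capitals mark matches on either strand to the GC box GGGCGG, to the TATA box motif TATAAA and to the SMAD element CAGAC. The CCAAT box and the heat shock element core GAANNTTC were also searched. No match overlapped with another.
Serpinh1: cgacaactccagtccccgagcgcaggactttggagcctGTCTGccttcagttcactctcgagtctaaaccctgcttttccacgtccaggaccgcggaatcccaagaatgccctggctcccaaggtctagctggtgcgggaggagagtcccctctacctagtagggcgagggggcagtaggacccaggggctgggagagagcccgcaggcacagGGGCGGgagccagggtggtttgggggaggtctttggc
Plod1: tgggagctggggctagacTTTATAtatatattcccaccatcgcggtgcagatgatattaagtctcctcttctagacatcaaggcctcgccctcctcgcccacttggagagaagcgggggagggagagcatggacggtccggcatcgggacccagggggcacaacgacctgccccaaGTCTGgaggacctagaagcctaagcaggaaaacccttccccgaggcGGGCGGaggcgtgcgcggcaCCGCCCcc
Both windows held GGGCGG, once in Serpinh1 and at 2 places in Plod1, and both held CAGAC once. These motifs occurred in 32.7% and 42.2% of 32851 promoters of the same length, so neither is uncommon, and TATAAA, which Plod1 alone of the pair held, in 12.4%. The G and C content was 63.6% in Serpinh1 and 61.6% in Plod1, against a median of 52.4% over all promoters. Neither window held the CCAAT box or the heat shock core, which says only that these letters are absent there.

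The WTD raised most of the crosslinking machinery and lowered Bmp1. Of the 10 members, 7 rose (Lox, Loxl1, Loxl2, Loxl3, Plod2, Serpinh1 and Pcolce), 1 fell (Bmp1) and 2 (Plod1 and Plod3) did not pass the test. A gene was called at an adjusted p under 0.01 in the edgeR quasi-likelihood test, and by this rule 33.5% of all tested genes were called, 17.5% higher and 16% lower. The median log2 fold change was 1.20 over the members and 0.03 over all tested genes. The members were chosen with earlier results of these data known, so these counts describe the list and do not test it. In 5 members no WTD-fed mouse overlapped with a chow-fed mouse: Lox, Loxl1, Loxl2 and Serpinh1 were higher without overlap, as were 3.4% of all tested genes, and Bmp1 was lower without overlap, as were 2.43%.

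**Figure D1:**
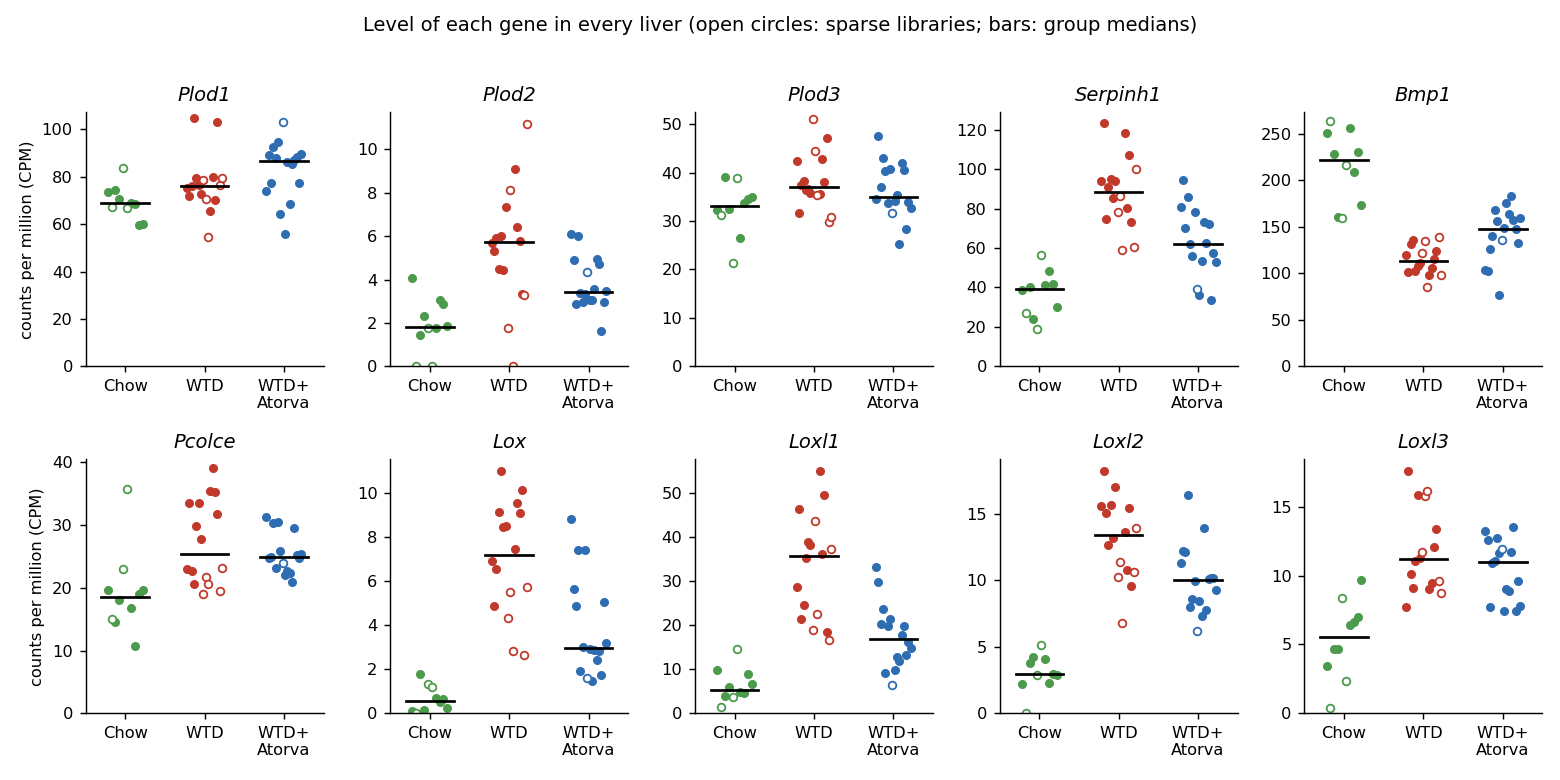
Level of the 10 members in every liver in CPM, by group, with open circles for sparse libraries and bars for group medians. In the panels of Lox, Loxl1, Loxl2 and Serpinh1 all WTD-fed mice lay above all chow-fed mice, and in the panel of Bmp1 they all lay below.

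Whole liver was sequenced, so fewer cells of a type and less RNA per cell cannot be told apart. Markers of several cell types moved beside the members. All 7 hepatocyte markers fell on WTD, with summed levels of 106308 to 154926 CPM in chow-fed, 49782 to 106168 CPM in WTD-fed and 58619 to 127658 CPM in treated mice, and 5 of the 7 rose with atorvastatin. All 7 macrophage markers rose on WTD, from 108 to 157 CPM to 558 to 1257 CPM, with 450 to 1012 CPM in treated mice, of which 3 fell. The 5 cholangiocyte markers rose as well, from 7.88 to 20.8 CPM to 18.6 to 83.7 CPM, and 0 of them were called with atorvastatin in edgeR (3 had an unadjusted p under 0.05). Of the 8 stellate cell markers 1 rose and 0 fell on WTD, with sums of 162 to 396 CPM on chow and 275 to 440 CPM on WTD. Of 6 myofibroblast markers 3 rose and 1 fell, with sums of 58.5 to 514 CPM on chow and 95.4 to 288 CPM on WTD. Lum had a mean of 131 CPM on WTD and 14.7 CPM on chow, where Tagln had 23.1 CPM. Of 5 portal fibroblast markers 3 rose, from sums of 3.44 to 19.8 CPM to 15.5 to 41.7 CPM. With atorvastatin 1 stellate marker rose (Reln) and 1 fell (Pdgfrb), and 1 myofibroblast marker (Lum) and 1 portal fibroblast marker (Cd34) fell. Chow replicate 1 was the highest chow-fed mouse in the summed myofibroblast (514 CPM, median 71.1), stellate cell (396, median 275), portal fibroblast (19.8, median 7.02), vascular smooth muscle (64.4, median 31.4), T and B cell (50.7, median 12.7) and adipose markers (12.0, median 0), and in Plod2. Leaving it out changed no call of a member on WTD against chow. The part of these cells in the levels of the members was not tested.

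Of the 3 lysyl hydroxylases, only Plod2 passed the test in WTD-fed mice. PLOD2 hydroxylates lysines in the telopeptides at the ends of the collagen chain, PLOD1 those in the triple helix, and PLOD3 adds sugars to hydroxylysine besides. Plod2 (chr9:92542223-92608428, GRCm38) was weakly expressed, with 0 to 4.05 CPM and a median of 1.82 in chow-fed mice and 0 to 11.2 CPM with a median of 5.73 in WTD-fed mice. The libraries without any count of it, 2 chow and 1 WTD, were all sparse, and 12 of the 16 WTD-fed mice lay above the highest chow-fed mouse. The log2 fold change was 1.52 ± 0.46 (SE; adjusted p = 0.00527, edgeR). Without the sparse libraries it was 1.22 (adjusted p = 6.53e-05). The call was lost without WTD replicate 16 (adjusted p = 0.0102) and when only the 2 diets entered the fit (adjusted p = 0.0276).

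Plod1 (chr4:147909753-147936767) was present at 59.6 to 83.8 CPM with a median of 68.7 in chow-fed mice and at 54.4 to 105 CPM with a median of 76.2 in WTD-fed mice. The ranges overlapped and the difference missed the threshold (log2 0.15, 95% confidence interval -0.02 to 0.32, adjusted p = 0.139, edgeR). Plod3 (chr5:136987019-136996648) had 21.3 to 39.1 CPM, median 33.2, on chow and 29.8 to 51.0 CPM, median 37.1, on WTD. It also missed the threshold, with a log2 difference of 0.24 (interval 0.05 to 0.43, adjusted p = 0.0396; 0.29, adjusted p = 0.00957 and called when only genes with at least 10 counts in every mouse were tested), and 5 WTD-fed mice lay above the highest chow-fed mouse. A stretch of 11.7% of the Plod3 exons is shared with Znhit1 on the opposite strand. The ratio of Plod2 to Plod1 within the same liver, in log2(CPM + 0.5), was 1.22 higher in WTD-fed mice (permutation test, adjusted p = 0.0129), and 0.764 to 1.20 higher under 3 alternatives. Between atorvastatin-treated and WTD-fed mice it differed by -0.38 (adjusted p = 0.21), and by -0.60 (adjusted p = 0.00813) without the sparse libraries or -0.57 (adjusted p = 0.0152) without WTD replicate 10. With medians in place of means on all mice it differed by -0.64 (adjusted p = 0.0433).

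Serpinh1 (chr7:99345376-99353239) was the most abundant member per kb of exon in WTD-fed livers. Chow-fed mice had 19.0 to 56.6 CPM with a median of 39.5, and WTD-fed mice 58.9 to 124 CPM with a median of 88.7. The groups did not overlap. The change was 2.42-fold (log2 1.28 ± 0.16, adjusted p = 5.95e-09, edgeR), and its log2 value stayed between 1.20 and 1.37 when any 1 mouse was left out.

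The pair that removes the C-propeptide moved in opposite directions. Bmp1 (chr14:70474558-70520234) had 159 to 264 CPM, median 222, in chow-fed mice and 84.7 to 139 CPM, median 113, in WTD-fed mice. All WTD-fed mice lay below all chow-fed mice, and the WTD level was 0.534 times the chow level (log2 -0.91 ± 0.10, adjusted p = 1.02e-10, edgeR). Pcolce (chr5:137605103-137613784) had 10.7 to 35.6 CPM, median 18.5, on chow and 19.0 to 39.0 CPM, median 25.4, on WTD. Every WTD-fed mouse lay above the chow median, but only 1 above the highest chow-fed mouse, chow replicate 6. The change was 1.42-fold (log2 0.51 ± 0.13, adjusted p = 0.00153), and without the sparse libraries the log2 value was 0.84. The log2 ratio of Pcolce to Bmp1 was -3.49 ± 0.57 (SD, n = 10) in chow-fed and -2.08 ± 0.47 (SD, n = 16) in WTD-fed mice, a difference of 1.41 (permutation test, adjusted p = 4e-05). In treated mice this ratio was 1.06 higher than on chow (adjusted p = 0.000111) and differed from WTD by -0.36 (adjusted p = 0.0428). The latter was lost when medians were compared (-0.44, adjusted p = 0.1). Leaving out certain single mice also removed it, with adjusted p up to 0.0737 (without atorvastatin replicate 12).

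All 4 lysyl oxidases among the members rose, whereas Loxl4, which is outside the members, fell (given below). Lox (chr18:52516067-52529867), the founding member of the family, was close to the detection limit in chow-fed mice, with 0 to 1.79 CPM and a median of 0.584, which is a median of 10.5 counts per library. WTD-fed mice had 2.66 to 11.0 CPM with a median of 7.21, all above the chow-fed mice. The log2 fold change was 3.40 ± 0.43 (adjusted p = 2.87e-09, edgeR), the largest among the 10 members, and it ranged from 3.26 to 3.69 with any 1 mouse left out. Since the chow level rests on few counts, the size of this fold depends on how low counts are modelled, and it reached 4.06 among the alternative fits.

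Loxl1 (chr9:58287738-58313186), which is known for its role in elastic fibres, had 1.41 to 14.7 CPM, median 5.34, in chow-fed mice and 16.7 to 55.0 CPM, median 35.7, in WTD-fed mice. It increased 5.15-fold (log2 2.36 ± 0.28, adjusted p = 2.22e-09, edgeR). Loxl2 (chr14:69609068-69695834), which acts on collagen IV of basement membranes among other substrates, had 0 to 5.12 CPM, median 2.94, on chow and 6.80 to 18.2 CPM, median 13.4, on WTD. For both genes the lowest WTD-fed mouse exceeded the highest chow-fed mouse. Loxl2 increased 4.30-fold (log2 2.10 ± 0.26, adjusted p = 1.25e-09). Loxl3 (chr6:83034173-83052562) had 0.383 to 9.66 CPM, median 5.54, on chow and 7.70 to 17.6 CPM, median 11.2, on WTD, with overlap in 6 of 16 WTD-fed mice. It increased 2.19-fold (log2 1.13 ± 0.23, adjusted p = 5.56e-05), and 11.6% of its exons are shared with Htra2 on the opposite strand. The libraries were strand-specific, but the strand setting of the counting is not given in the sources used here.

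**Figure D2:**
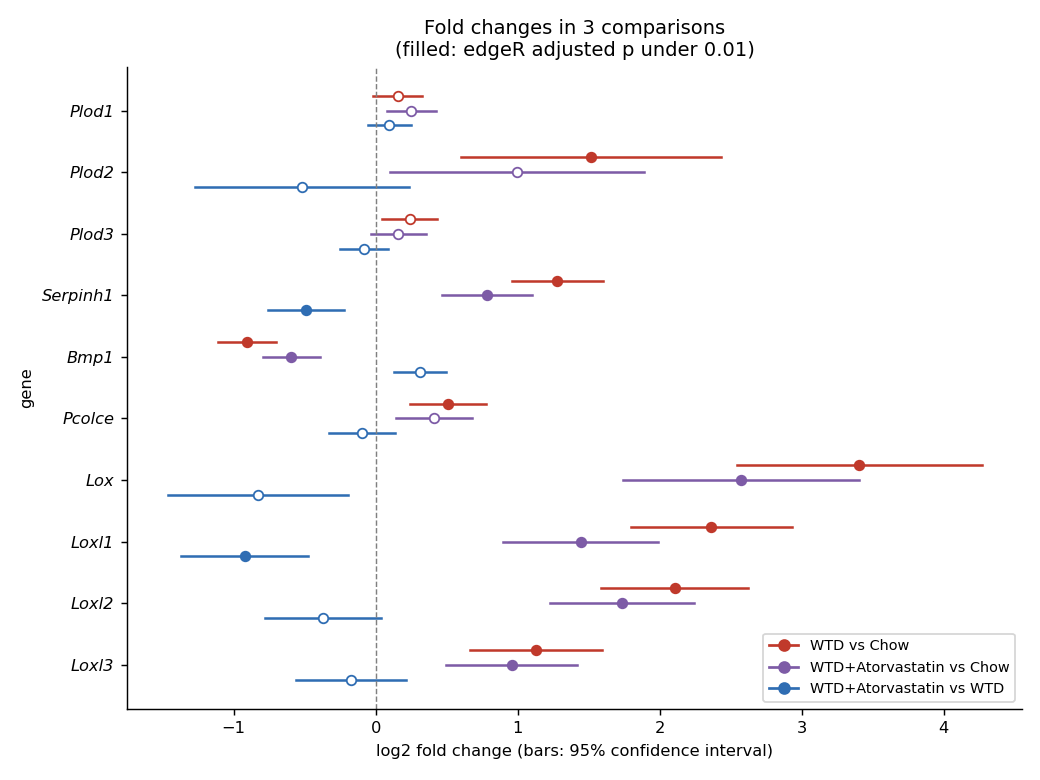
Log2 fold changes of the 10 members in 3 comparisons, with 95% confidence intervals from the edgeR fit; filled points had an adjusted p under 0.01. On WTD against chow the lysyl oxidases lay between 1.13 and 3.40, whereas Bmp1 lay at -0.91, and with atorvastatin against WTD only Loxl1 and Serpinh1 are filled.

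Atorvastatin lowered Loxl1 and Serpinh1, and the other 8 members did not pass the test against WTD alone. Both calls were decreases, in a comparison in which 7.1% of all tested genes were called, 4.84% higher and 2.26% lower. Of these calls 68.2% were higher, a share that fell to 54.9% with RLE scaling and to 50.9% with DESeq2. The 10 fold changes were negative in 8 members and their median was -0.27, against 0.00 over all tested genes. No member separated the treated from the untreated mice without overlap. Across all tested genes 1 was higher without overlap (0.00642%) and 0 were lower, while 3822 genes had an unadjusted p under 0.05 in this comparison.

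Loxl1 had 6.50 to 33.3 CPM with a median of 17.0 in atorvastatin-treated mice, against the median of 35.7 on WTD alone. All 16 treated mice lay below the WTD median and 8 of them below the lowest WTD-fed mouse. The level was 0.528 times that of WTD-fed mice (log2 -0.92 ± 0.22, adjusted p = 0.00314, edgeR), and the call held with each of the 42 mice left out in turn (adjusted p 0.000996 to 0.0068).

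Serpinh1 had 33.8 to 94.6 CPM with a median of 62.2 in atorvastatin-treated mice, and 15 of 16 lay below the WTD median of 88.7. The level was 0.711 times that of WTD-fed mice (log2 -0.49 ± 0.13, adjusted p = 0.00891, edgeR). This call sat close to the threshold. Leaving out a single mouse removed it in 22 of 42 cases, with log2 values of -0.54 to -0.45 and adjusted p of 0.0032 to 0.0191 over all 42. The mice concerned were chow replicates 1, 3 and 7, WTD replicates 1, 2, 4, 5, 6, 7, 9, 11, 13 and 16, and atorvastatin replicates 5, 6, 8, 9, 10, 12, 14, 15 and 16. It was also lost without the filter on low counts (adjusted p = 0.0134), and without the sparse libraries it was kept (log2 -0.54, adjusted p = 0.00291).

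Lox and Loxl2 showed the same sign without passing the test on all mice. Lox had 1.49 to 8.82 CPM, median 2.98, in treated mice, and 13 of 16 lay below the WTD median of 7.21. Its log2 difference was -0.83 ± 0.32 (interval -1.46 to -0.20, adjusted p = 0.0743, edgeR). Without the 9 sparse libraries the difference was -1.01 and passed (adjusted p = 0.00602), as it did in limma-voom with sample weights (-1.34, adjusted p = 5.63e-07). Loxl2 had 6.17 to 16.4 CPM, median 10.0, with 14 of 16 below the WTD median, and a log2 difference of -0.37 ± 0.20 (adjusted p = 0.261). Without the sparse libraries this was -0.45 (adjusted p = 0.00987), and in limma-voom -0.53 (adjusted p = 0.000149). Plod2, at 1.62 to 6.10 CPM with a median of 3.44, differed by -0.52 (interval -1.28 to 0.23, adjusted p = 0.439).

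Bmp1 was the member with the largest difference upwards, against the direction of Loxl1 and Serpinh1. Treated mice had 76.3 to 183 CPM with a median of 148, and 10 of 16 lay above the highest WTD-fed mouse at 139 CPM. The log2 difference of 0.31 ± 0.09 missed the threshold (adjusted p = 0.0135, edgeR) and passed in limma-voom (0.42, adjusted p = 1.11e-05). It passed without WTD replicate 15 (0.33, adjusted p = 0.00652) or atorvastatin replicate 1 (0.34, adjusted p = 0.00597) or 2 (0.34, adjusted p = 0.0061), and without replicate 7, the lowest treated mouse, it was 0.36 (adjusted p = 0.0015). Plod1 (log2 0.10), Plod3 (-0.08), Pcolce (-0.10) and Loxl3 (-0.17) had adjusted p between 0.472 and 0.686. Their 95% intervals lay within -0.56 and 0.25.

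Against chow, atorvastatin-treated mice kept higher levels of 5 members, Lox (log2 2.57 ± 0.41), Loxl1 (1.44 ± 0.27), Loxl2 (1.73 ± 0.25), Loxl3 (0.96 ± 0.23) and Serpinh1 (0.79 ± 0.16), and a lower level of Bmp1 (-0.59 ± 0.10). In this comparison 25% of all tested genes were called, 14.2% higher and 10.7% lower. It shares its control mice with the diet comparison, so the values stand side by side and are not independent. Loxl2 was the one member without overlap between treated and chow-fed mice, where 2.88% of all tested genes were higher without overlap and 1.5% lower. The largest adjusted p among these 6 was 0.000722 (edgeR). Pcolce (0.41, adjusted p = 0.0133) and Plod1 (0.25, adjusted p = 0.017) missed the threshold in this fit. Pcolce passed without the sparse libraries (0.60, adjusted p = 6.24e-05), which made 7 members called, beside 29.0% of all tested genes. Pcolce also passed without chow replicate 5 (0.44, adjusted p = 0.00952) or chow replicate 6 (0.55, adjusted p = 0.000377). Plod1 passed without chow replicate 5 (0.29, adjusted p = 0.00762) or without atorvastatin replicate 7 (0.27, adjusted p = 0.00892) or 9 (0.28, adjusted p = 0.00484). Plod2 (1.00, adjusted p = 0.0787) and Plod3 (0.16, adjusted p = 0.21) were not called.

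The order of the levels per kb of exon differed between the diets. In chow-fed mice Bmp1 came first with a median of 25.0 CPM per kb, ahead of Serpinh1 with 16.1 and Plod1 with 10.2, and Bmp1 exceeded Serpinh1 in 10 of 10 mice. In WTD-fed mice Serpinh1 came first with 36.3 CPM per kb and exceeded Bmp1, at 12.8, in 16 of 16 mice. The neighbours Bmp1, Plod1, Loxl1, Plod3 and Pcolce overlapped from one to the next, with medians of 12.8, 11.3, 10.8, 8.21 and 6.65. Loxl1 thereby stood at the fourth place on WTD, after the sixth place on chow with 1.62 CPM per kb. Lox and Plod2 were the lowest members in all groups, with medians between 0.122 and 1.51 CPM per kb. In atorvastatin-treated mice the first 3 were Serpinh1 (25.5), Bmp1 (16.7) and Plod1 (12.8), and Loxl1 was sixth (5.15).

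Fibrillar collagen mRNA rose beside the enzymes. Col1a1 and Col1a2, which encode the chains of type I collagen, and Col3a1 of type III rose by 3.53, 3.43 and 2.83 on the log2 scale in WTD-fed mice (largest adjusted p 1.42e-12, edgeR). The mean log2 level of these 3 genes was set against each member in the same liver, which gave 30 of the 48 ratios tested by permutation. In log2(CPM + 0.5) the ratio to collagen was lower on WTD than on chow for all 10 members, and the ratios share that denominator. The drop was largest for Bmp1 (-4.16), Plod1 (-3.12), Plod3 (-3.02) and Pcolce (-2.74), without overlap between the diets. It was intermediate for Loxl3 (-1.99), Serpinh1 (-1.96), Plod2 (-1.90), Loxl2 (-1.16) and Loxl1 (-0.88), with adjusted p of at most 0.00127. The ratio of Lox depends on the added constant, since its chow median of 0.584 CPM is close to it: the fitted rise of Lox, 3.40, lay within those of the 3 collagens. Its ratio differed by -0.50 (adjusted p = 0.0455) with 0.5 CPM added and by -1.48 with 2 CPM added. The former was no longer past the threshold of 0.05 without the sparse libraries (-0.31, adjusted p = 0.278). It was also lost without any one of chow replicates 3, 5, 6, 7, 8 or 9 or of WTD replicates 2, 6, 8, 9, 10, 11, 13, 15 or 16, with adjusted p up to 0.105.

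Between treated and chow-fed mice every member was also lower against collagen (permutation tests, adjusted p of at most 0.0134). The differences ran from -3.09 for Bmp1 to -0.56 for Lox (adjusted p = 0.0081). The value of Lox depends on the added constant here too, since it uses the same low chow levels. With atorvastatin against WTD the ratios to collagen moved upwards for 6 members. Bmp1 rose by 1.07 against collagen, Plod1 by 0.87, Pcolce by 0.71, Plod3 by 0.69, Loxl3 by 0.62 and Loxl2 by 0.42 on the log2 scale, with adjusted p between 0.000808 and 0.0206 (permutation tests). Lox (-0.06, adjusted p = 0.681) and Loxl1 (-0.15, adjusted p = 0.293) were the pair that remained nearest to 0. Plod2 (0.49, adjusted p = 0.105) and Serpinh1 (0.26, adjusted p = 0.0628) did not pass. Plod2 passed with 2 CPM added (0.49, adjusted p = 0.0318), and Serpinh1 when medians were compared (0.34, adjusted p = 0.0307). Serpinh1 passed without WTD replicate 15 (0.30, adjusted p = 0.0234) or without atorvastatin replicate 1 (0.29, adjusted p = 0.0382), 4 (0.31, adjusted p = 0.0194) or 15 (0.29, adjusted p = 0.0376). Within the lysyl oxidases, Loxl2 and Loxl3 rose relative to Lox by 0.48 (adjusted p = 0.0236) and 0.69 (adjusted p = 0.0187), the latter not past the threshold when medians were compared (adjusted p = 0.0566). The collagens themselves had log2 differences of -0.77 for Col1a2 (adjusted p = 0.00182, edgeR), -0.75 for Col1a1 (adjusted p = 0.0215) and -0.53 for Col3a1 (adjusted p = 0.0129), of which the first passed.

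**Figure D3:**
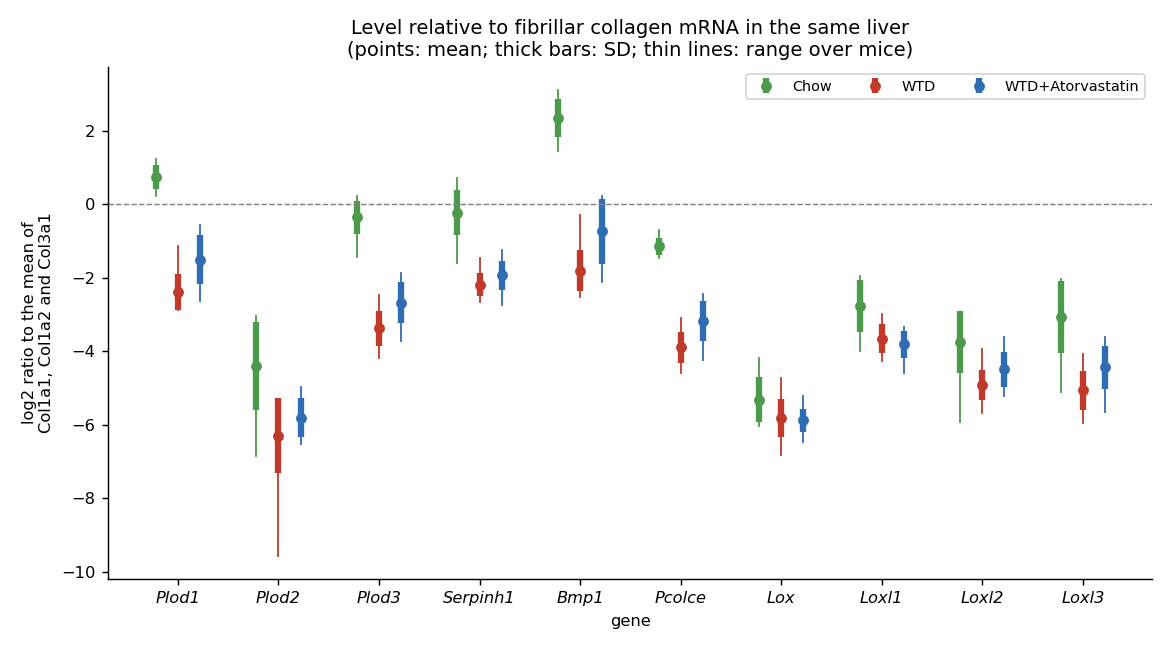
Log2 ratio of each member to the mean of Col1a1, Col1a2 and Col3a1 in the same liver, as mean (point), SD (thick bar) and range over mice (thin line) in each group. Bmp1 went from 2.34 in chow-fed mice to -1.81 in WTD-fed and -0.74 in atorvastatin-treated mice, and Lox went from -5.32 to -5.82 and -5.88.

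Several members followed collagen from mouse to mouse among the treated mice, and fewer passed the test in the other groups. Correlations of log2(CPM + 0.5) were computed for all 45 pairs of members and for each member with collagen, in each group, 165 relations in all. Of these, 17 had an adjusted permutation p under 0.05, and 16 of the 17 were positive. By Spearman rank correlation 7 of the 17 passed. Members past the threshold with collagen numbered 1 in chow-fed, 2 in WTD-fed and 4 in treated mice, and 0, 0 and 3 by Spearman. On WTD they were Loxl1 and Serpinh1, each with r = 0.69 (permutation tests, adjusted p = 0.0178 and 0.0296). Both were lost by Spearman (adjusted p = 0.122 and 0.0928) and without the sparse libraries (adjusted p = 0.0716 and 0.174). Among atorvastatin-treated mice (n = 16), Lox followed collagen with a Pearson r of 0.90 (p = 1e-05, the smallest 100000 resamples can give, adjusted p = 0.00165, permutation test; rho 0.83, adjusted p = 0.0115; r 0.88 without the 2 mice farthest from the median). Loxl1 followed it with r = 0.83 (p = 0.00016, adjusted p = 0.00726, permutation test; rho 0.91, adjusted p = 0.00165; r 0.82 without 2 mice). Serpinh1 followed it with r = 0.79 (p = 0.00039, adjusted p = 0.0107, permutation test; rho 0.81, adjusted p = 0.0132; r 0.72 without 2 mice). These 3 relations stayed past the threshold without the sparse libraries, as did 6 of the 17 in all, while 11 did not. Lox and Loxl1 correlated with each other at r = 0.80 (p = 0.00022, adjusted p = 0.00726, permutation test; rho 0.79, adjusted p = 0.0132; r 0.74 without 2 mice).

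The single negative relation past the threshold was that of Lox and Bmp1 in atorvastatin-treated mice, with r = -0.74 (p = 0.00066, adjusted p = 0.0156, permutation test; rho -0.70, adjusted p = 0.0664; r -0.62 without 2 mice). With CPM of the total count it was -0.56 (adjusted p = 0.0711). In WTD-fed mice (n = 16) Loxl1 and Serpinh1 correlated with r = 0.82 (p = 0.00012, adjusted p = 0.00726, permutation test; rho 0.81, adjusted p = 0.0132; r 0.75 without 2 mice). Loxl2 and Serpinh1 had r = 0.79 (p = 0.00022, adjusted p = 0.00726, permutation test; rho 0.79, adjusted p = 0.0146; r 0.67 without 2 mice), which was 0.63 (adjusted p = 0.155) without the 5 sparse WTD libraries. In chow-fed mice, 1 of 55 relations passed, Pcolce with collagen (n = 10, r = 0.87, permutation p = 0.00097, adjusted p = 0.0178; rho 0.79, adjusted p = 0.101; r 0.79 without 2 mice). Whether relations differed between groups was not tested. The genes of a library share its depth and its missing counts, and with CPM of the total count in place of CPM scaled by TMM (edgeR's trimmed mean of M-values), 41 relations passed.

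**Figure D4:**
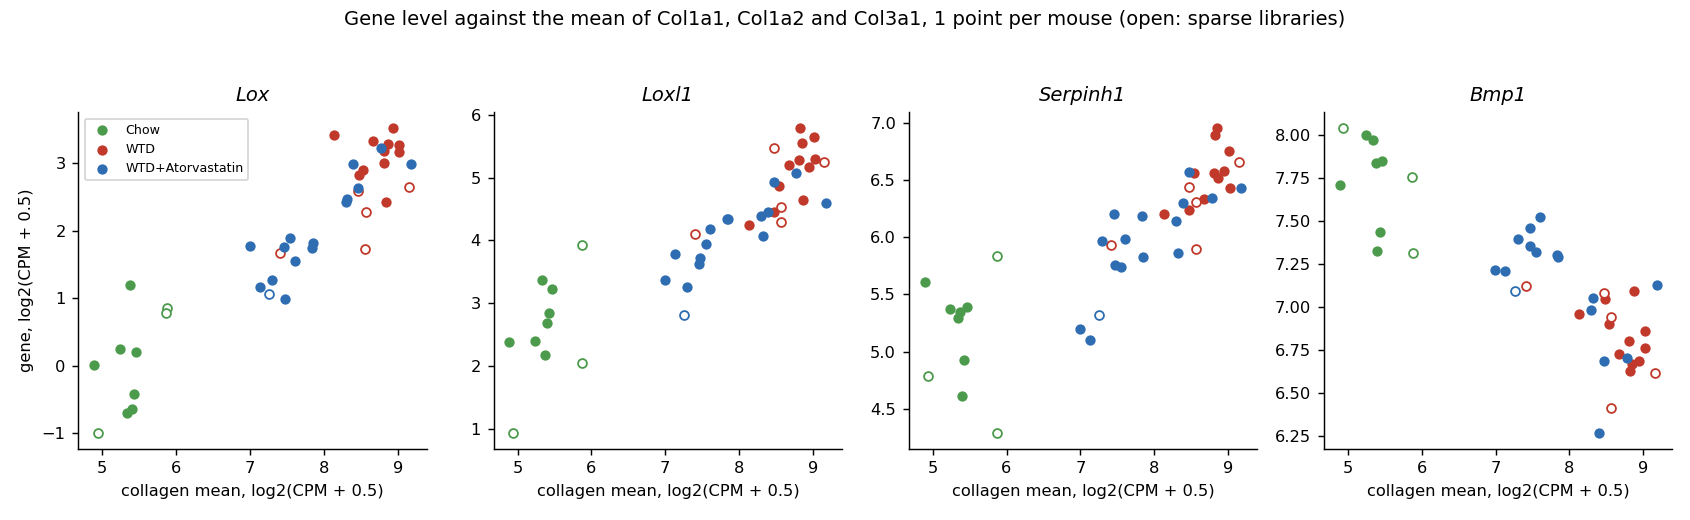
Level of Lox, Loxl1, Serpinh1 and Bmp1 in log2(CPM + 0.5) against the mean of Col1a1, Col1a2 and Col3a1, with 1 point per mouse and open circles for sparse libraries. The atorvastatin-treated mice spread along the collagen axis, with Lox, Loxl1 and Serpinh1 rising (r 0.90, 0.83 and 0.79), while Bmp1 had r = -0.59, which did not pass (n = 16, permutation test, adjusted p = 0.0931).

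Genes with the pattern most like each member were sought over all 42 mice after the group means were removed. Lox was most like Col1a1 (r 0.76), Gss (0.75), an enzyme of glutathione synthesis, and Col4a1 (0.75), a basement membrane collagen. Loxl1 was most like Dkk3 (0.80), St14 (0.79) and Tspan3 (0.77), and Serpinh1 most like Igfbp7 (0.70), Srsf3 (0.69) and Dynll1 (0.69). For Bmp1 the nearest genes were Entpd8 (0.80), an ectonucleotidase, Aspdh (0.79) and Tymp (0.79). Like Bmp1, these 3 had lower medians on WTD than on chow, 89.6 against 247 CPM for Entpd8. With Col1a1, Bmp1 had r = -0.60, rank 15510 of 15573, and with Lum -0.61, rank 15524. With the hepatocyte marker Alb it had r = 0.53, rank 461. Pcolce was nearest to Wdr72 (0.72), Scara3 (0.69) and Clstn1 (0.67). Of these Wdr72 was close to the detection limit, with medians of 0.0256 CPM on chow, 0.387 on WTD and 0.727 in treated mice. Plod1 was nearest to Dglucy (0.65), Mettl15 (0.63) and Tln1 (0.62), and Plod3 to Dnlz (0.65), Mrpl54 (0.63) and Ogfod1 (0.63). The nearest genes of Loxl2 (Rtn1, Gabra3, Plekhb2), Loxl3 (Fbxw7, Zfp84, BC052040) and Plod2 (Orc2, Mtrf1l, Cntln) had r of 0.76 to 0.86. Their Spearman rho was 0.50 to 0.76. Their levels differed, with group medians of 1.68 to 4.72 CPM for Cntln and 13.8 to 29.0 CPM for Plekhb2. Whether missing counts in the sparse libraries bear on these r was not tested. The nearest genes were picked as the highest of all, so no test is given.

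The rest of the collagen biosynthesis pathway was mixed. Of 35 tested genes in 5 further lists, 11 rose, 7 fell and 17 did not pass on WTD against chow, with a median log2 difference of 0.31. Over all tested genes 17.5% rose and 16% fell, with a median of 0.03. Mep1a, Mep1b, Tll1 and Tll2 had too few counts to be tested. Of the prolyl hydroxylases and their partners 3 of 10 rose, among them P3h3 (log2 1.34 ± 0.17, adjusted p = 2.42e-09, edgeR), and 2 fell, Ppib (-0.72 ± 0.08, adjusted p = 5.72e-11), a prolyl isomerase, and P4hb (-0.45 ± 0.07), the disulfide isomerase that is also the beta subunit of prolyl 4-hydroxylase. In the list of 10 other genes for folding and glycosylation in the endoplasmic reticulum 3 rose and 2 fell. Among the 3 were Colgalt1 (0.99 ± 0.09), a collagen galactosyltransferase, and Sparc (1.70 ± 0.13, adjusted p = 8.16e-16). Sparc was put in this list although it encodes a secreted collagen-binding protein. In the export list of 7 genes Creb3l1, which encodes a transcription factor, rose. Mia3 (-0.60 ± 0.08, adjusted p = 4.25e-08), which loads procollagen into carriers, and Sar1b (-0.65 ± 0.09) fell. Of 5 tested propeptide proteinases and enhancers 2 rose, Adamts2 (1.81 ± 0.23, adjusted p = 1.76e-08), the procollagen N-proteinase, and Adamts14 (1.07 ± 0.27), and 0 fell.

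All 3 other crosslinking enzymes changed on WTD. Tgm2, a transglutaminase, had 151 to 248 CPM, median 211, in chow-fed mice and 392.3 to 648 CPM, median 565, in WTD-fed mice, without overlap. It increased 2.74-fold (log2 1.45 ± 0.11, adjusted p = 7.64e-16, edgeR), and Pxdn, a peroxidase that crosslinks collagen IV, rose by 0.63 ± 0.17 (adjusted p = 0.00168). Loxl4, the one lysyl oxidase outside the members, fell to 0.379 times its chow level (SE of the log2 value 0.37, adjusted p = 0.00165), from a median of 22.9 CPM (6.06 to 38.8) to 6.44 CPM (1.43 to 15.5). The 6 substrate genes all rose, among them Eln for elastin (2.12 ± 0.25).

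With atorvastatin against WTD, 3 of the 35 genes rose, 1 fell and 31 did not pass, with a median of 0.01. Over all tested genes 4.84% rose and 2.26% fell, with a median of 0.00. The export genes Mia2 (0.35 ± 0.07, adjusted p = 0.000628, edgeR) and Mia3 (0.36 ± 0.07, adjusted p = 0.000667) rose, as did Furin (0.38 ± 0.08, adjusted p = 0.000686), a proprotein convertase that also activates Bmp1. Sparc fell by 0.57 ± 0.10 (adjusted p = 0.000147). None of the prolyl hydroxylase list or of the other crosslinking enzymes passed in this edgeR fit, in which Tgm2 had -0.29 (adjusted p = 0.0278), P4hb 0.14 (adjusted p = 0.102) and P3h2 -0.52 (adjusted p = 0.144), while 4 and 1 genes of these lists had an unadjusted p under 0.05. With limma-voom 13 of the 35 were called instead of 4, beside 20.2% of all tested genes instead of 7.1%. Of the 6 substrates Eln (-0.82 ± 0.20, adjusted p = 0.00348) and Col1a2 fell. Against chow, 13 of the 35 were higher and 5 lower in treated mice, as were 14.2% and 10.7% of all tested genes.

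**Figure D5:**
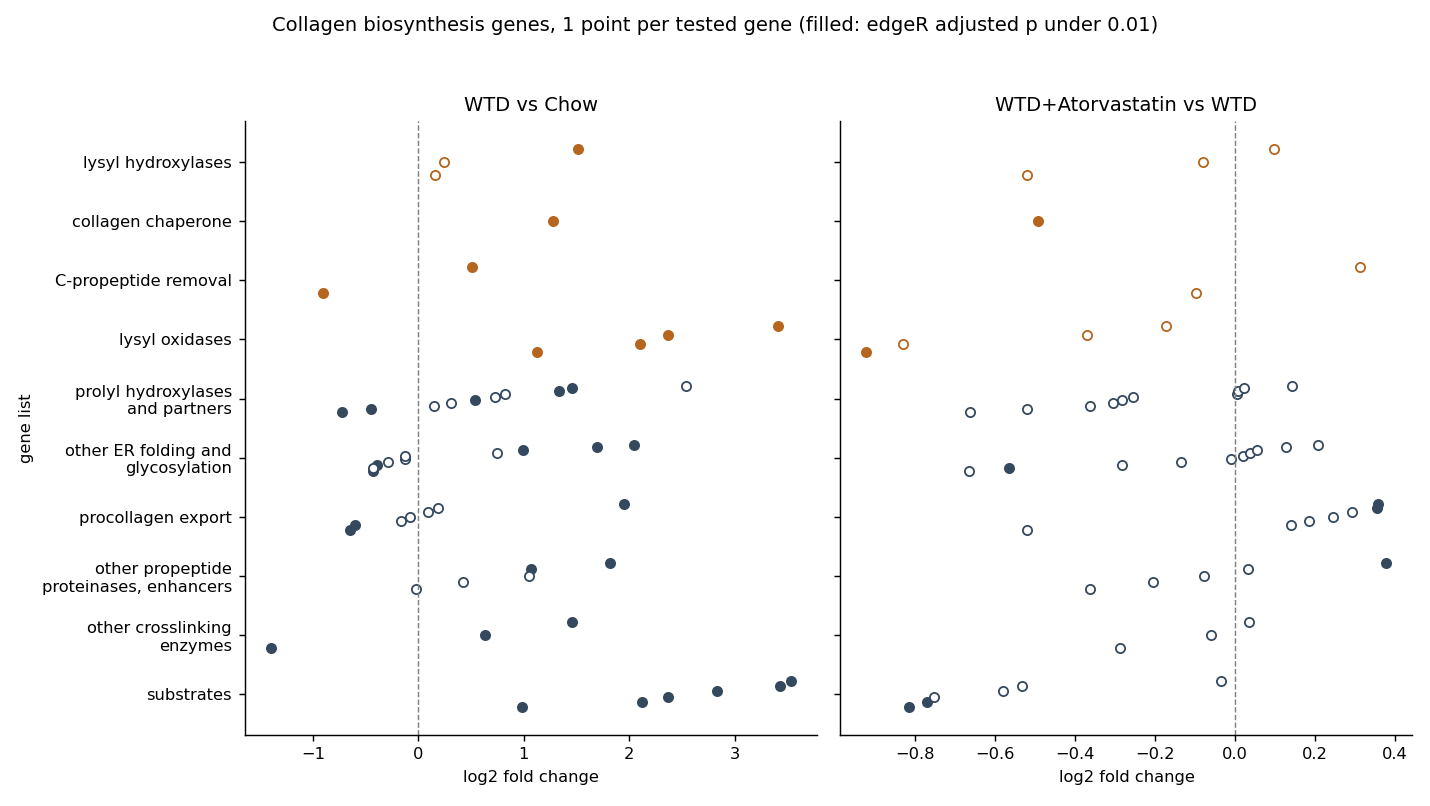
Log2 fold changes of the tested genes of the members' lists and of the other collagen biosynthesis lists, 1 point per gene, filled where the edgeR adjusted p was under 0.01, for WTD against chow and for atorvastatin against WTD. The 4 lysyl oxidases among the members and the substrates lay to the right of 0 on WTD, Loxl4 in the list of other crosslinking enzymes to the left, while the prolyl hydroxylase, folding and export lists lay on both sides.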

How the data were processed

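Liver RNA of 42 mice was sequenced as strand-specific paired-end libraries, 1 per mouse. Per the labels and the submitters' processing notes, which name Trimmomatic, STAR 2.5, HTSeq 0.6.1p1, DESeq2 and the build GRCm38, the authors deposited raw read counts per Ensembl gene without normalization. The strand setting of the counting is not given in the sources used here. HTSeq's own lines (2.00 to 2.78% no feature, 5.43 to 6.57% ambiguous, 4.07 to 5.36% multiple) were left out. Symbols were matched for 54409 of 54446 genes. The 42 single tables equalled the merged one, and 0 pairs of libraries were duplicates.

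Counts were fitted in edgeR 4.0.16 (quasi-likelihood, TMM, R 4.3.3) with all 3 groups in 1 model, for genes passing its expression filter (minimum count 10, minimum total 15), and p-values were adjusted by Benjamini-Hochberg over all 15574 genes with a threshold of 0.01. CPM values use TMM library sizes. Ratios and correlations used log2(CPM + 0.5), two-sided permutation tests with 100000 resamples and adjustment over 48 and 165 tests. Alternatives included DESeq2 1.42.0 and limma-voom (limma 3.58.1), other scalings and filters, and leaving out each mouse. The edgeR fit was run on simulated counts with known changes, and the permutation tests were not run on simulated data. The genes named are all members, Col1a1, Col1a2 and Col3a1, in each further collagen list the 2 with the smallest p on WTD against chow and the 2 with the smallest p with atorvastatin against WTD, all genes of lists with 3 or fewer tested, the 3 genes most alike to each member, and the 2 most abundant markers of a cell type. Creb3l1 and cell markers outside this rule were named after their values were seen. The members and gene lists were chosen with earlier results of these data known. Replicates were numbered in accession order within groups, and p-values measure the spread between mice, which were group-housed.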

Additional observations from a re-analysis of the deposited data

Results flagged for a closer look

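The level of Pcolce in the highest chow-fed mouse, replicate 6, stood apart from the other 9, at 35.6 CPM against 23.0 CPM in the next mouse. The gap was 0.506 of the whole range of the group, above the 95% critical value of Dixon's test for 10 samples. All 10 members were tested in the chow group, and chance marks about 1 group in 20. The groups of 16 were not tested. The library of this mouse was sparse, and whether that bears on the value was not tested. Without it, the log2 difference of Pcolce between WTD and chow was 0.65 (adjusted p = 2.38e-05, edgeR) instead of 0.51.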

How the results depend on the processing

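No paired analysis was possible because the replicate numbers only name different mice. Of 318 values of member fold changes under alternatives other than leaving out a mouse, 301 kept their direction and side of the threshold, 15 passed in addition, 2 were lost and 0 reversed. Members called on WTD against chow numbered 8, beside 33.5% of all tested genes. With at least 10 counts in every mouse 6 members could be tested, and 5 were called (41.9% of all genes so tested), Plod3 being gained. There were 7 with only the 2 diets fitted (29.4%) and 9 at an adjusted p under 0.05 (43.9%). With any mouse left out there were 7 to 8. With atorvastatin against WTD, 2 members were called, beside 7.1% of all tested genes. There were 5 with limma-voom (20.2% of all tested genes), 4 without the sparse libraries (10.5%) and 3 at an adjusted p under 0.05 (13.0%). Without a count filter 1 was called (5.15%), and 1 to 3 with any mouse left out. Against chow, 6 were called in treated mice, beside 25% of all tested genes. There were 5 with at least 10 counts in every mouse (33.7%) and 7 without the sparse libraries (29.0%). With limma-voom (31.9%) and at an adjusted p under 0.05 (34.6%) there were 8, and 6 to 8 with any mouse left out. Of the other 35 pathway genes 4 were called with atorvastatin against WTD. There were 7 at an adjusted p under 0.05 (13.0% of all tested genes), 13 with limma-voom (20.2%) and 7 without the sparse libraries (10.5%). With any mouse left out there were 4 to 6. Correlations past the threshold numbered 17, against 7 by Spearman, 41 without TMM and 7 without the sparse libraries. Ratios that reversed had not passed: with a pseudocount of 2 CPM, Loxl1 over Lox (0.37 for WTD and 0.14 for atorvastatin, both against chow), Loxl2 over Lox (0.21, atorvastatin against chow) and Lox over collagen (0.14, atorvastatin against WTD); without the sparse libraries, Plod3 over Plod1 (-0.016, WTD against chow) and Loxl1 over Lox (0.11, atorvastatin against WTD); and without WTD replicate 14, Lox over collagen (0.010; -0.13 to 0.010 with any mouse left out). The causes were not tested. Lox, Loxl2, Loxl3 and Plod2 dropped out under the stricter filter. Sparse chow replicate 2, with 17342797 counts in all, had 0, 0, 6 and 0 counts of these 4 genes in that order. Chow replicate 3, with 17202366, had 27, 57, 70 and 22. The relation of these counts to depth was not tested.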

Other observations

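Other cell types with markers in the data were given no comparison above. Of 5 Kupffer cell markers 2 rose on WTD, Cd5l by 3.12 and Vsig4 by 1.05 on the log2 scale, and with atorvastatin Clec4f rose (0.62) and Cd5l fell (-0.39). Of 5 markers of sinusoidal endothelium Lyve1 rose on WTD (1.56), while Clec4g (-1.20) and Kdr (-0.44) fell. All 3 tested neutrophil markers rose on WTD, among them S100a8 (2.15). Of 3 tested vascular smooth muscle markers Smtn rose (0.48) and Myh11 fell (-1.57). Of the 4 mesothelial and 6 T and B cell markers none was called on WTD in edgeR, with 0 and 1 at an unadjusted p under 0.05. The 4 adipose markers had too few counts to be tested.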
